A study of Mus musculus with 6 samples.

Results

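Glycolysis splits glucose into pyruvate, and glucose and lactate carriers link it to the blood and to neighbouring cells. A set of 32 mouse genes was followed here: the hexokinases, the enzymes of the later steps to lactate, the kinases and phosphatases that set the level of the activator of phosphofructokinase, and the main carriers of glucose and lactate. The records were picked by gene name, with no threshold on a measured value, but the set was drawn up with earlier results of these data known. It matched 33 records of the 56980 in the deposited table, because Aldoa stood there with 2 records, and 31 of them had enough counts to be tested among 17735 genes.

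RNA came from whole ovaries of ICR mice, an outbred stock. The control group (replicates 2, 3 and 4) received the solvent, polyethylene glycol 400 (50%) in physiological saline, and the other group (replicates 2, 3 and 5) received FNZ in that solvent, at 30 mg/kg into the peritoneum each day over 7 days. The labels give the compound only as FNZ, and the title of the study is about blocking T-type calcium channels. No genotype or age is given, and it is not said whether the 3 ovaries of a group came from separate mice, so p-values measure the spread between these samples. In whole tissue, fewer cells of a type and less RNA per cell cannot be told apart.

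In the ovary, granulosa cells are known to run glycolysis and to hand pyruvate and lactate to the oocyte, which uses glucose poorly by itself. Phosphofructokinase is the main point of control. Its strongest activator, a fructose bisphosphate, is made and removed by the PFKFB enzymes and removed by TIGAR.

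Total expected counts ran from 19333493 to 23406628 per library. Levels are given as CPM, counts relative to a library size scaled with edgeR's TMM method, and as TPM, which is also divided by gene length and is used to set genes beside each other. FNZ replicate 3 stood apart among the members. It was the highest library for 14 of the 31 member records, or 45.2%, beside 12.8% of all tested genes. Across all tested genes FNZ replicate 2 was the highest most often, for 23.6%. Control replicate 3 was the lowest for 11 member records, beside 12.6% of all tested genes. Granulosa markers were at 4190 to 4270 summed TPM in the controls and 4020 to 4860 with FNZ, so the defining genes of the tissue were present in every library.

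Among the 16 members that averaged at least 20 TPM or had an unadjusted edgeR p under 0.05, the transcripts furthest above the controls with FNZ were Gapdh, Eno1 and Aldoa, enzymes of the second stage of the pathway and of the cleavage step before it, and the transcript furthest below was Pfkfb3, a PFKFB enzyme of high kinase activity and 16.6 TPM on average. None of these passed the edgeR quasi-likelihood test after Benjamini-Hochberg adjustment, in which 0 of 31 member records and 0 of 17735 genes (0.0%) were called at an adjusted p under 0.05, the lowest adjusted p of a member being 0.131. At an unadjusted edgeR p under 0.05 there were 6 of 31 member records, 5 higher and 1 lower, beside 23.2% of all tested genes. DESeq2 called 4 of 30 (Aldoa, Gapdh and Eno1 higher, Pfkfb3 lower) beside 10.1% of the genes it tested. The authors' deposited table has the same 4 of 33 records at an adjusted p under 0.05, beside 4.57% of its records with an adjusted p.

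The libraries of both groups did not overlap in CPM for 7 of 31 member records, with Gapdh, Eno1, Aldoa, Pgam1 and Ldhb higher and Pfkfb3 and Tigar lower with FNZ. Over all tested genes this share was 29.6%, above that of the members. The median log2 fold change was 0.11 for the members and 0.01 for all tested genes. Of the member records 18 of 31 lay above 0, beside 9076 of all 17735 tested genes. By role, 15 of 20 enzyme records, 1 of 5 regulators and 2 of 6 carriers lay above 0. The median log2 fold change was 0.16 for the enzymes, -0.05 for the regulators and -0.03 for the carriers.

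Gene length moved with the result. Across all tested genes the Spearman correlation between length and log2 fold change was -0.42, and across the member records it was -0.45, given as a description because genes share libraries. The enzyme records had a median length of 2034 bases, beside 2705 for all tested genes. With a length trend removed as an offset in edgeR, 4 of 31 member records (Pfkfb3, Aldoa, Gapdh and Eno1) had an unadjusted p under 0.05, beside 16.4% of all tested genes. DESeq2 with that offset called 3 of 30 (Pfkfb3, Gapdh and Eno1) beside 3.95%. On the log2(TPM + 1) scale the median of all tested genes lay at -0.18, a shift of the whole table, and the members' median lay at -0.17. In TPM the groups did not overlap for 7 member records, beside 31.5% of all tested genes, with Gapdh and Gpi1 higher and Hk2, Pfkfb3, Tigar, Slc2a3 and the short Aldoa record lower.

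Without FNZ replicate 3, edgeR called 6 of 31 member records at an adjusted p under 0.05, beside 17.6% of 18314 genes. Gapdh (log2 fold change 0.87 ± 0.14 SE), Aldoa (0.48 ± 0.13) and Ldhb (0.34 ± 0.09) were higher in that fit. Pfkfb3 (-0.75 ± 0.13), Pfkp (-0.42 ± 0.11) and Hk1 (-0.36 ± 0.10) were lower. With the length offset and without that library, 2 of 31 were called, Gapdh higher and Pfkfb3 lower, beside 3.36% of genes.

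**Figure D1:**
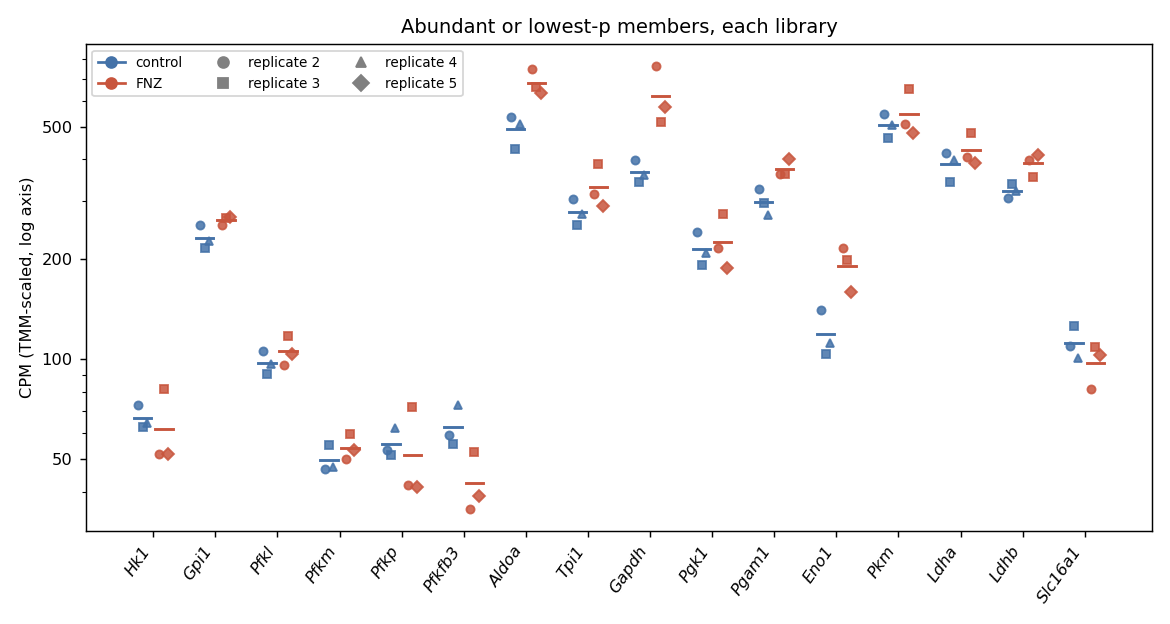
CPM (log axis) of the 16 member records with a mean of at least 20 TPM or an unadjusted edgeR p under 0.05, 1 point per library with the group mean as a line. FNZ points of Gapdh, Eno1, Aldoa, Pgam1 and Ldhb lie above all control points and those of Pfkfb3 below them, and FNZ replicate 3 is the top point for Hk1, Pfkp, Tpi1, Pgk1, Pkm and Ldha.

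Glucose enters ovarian cells through facilitative carriers of the SLC2 family. Slc2a1, the widely expressed basal glucose carrier, was the most abundant of the 3 that were followed, at 13.5 ± 0.66 TPM in controls and 12.6 ± 2.54 with FNZ (SD, n = 3 each). Its log2 fold change was -0.02 ± 0.15, and it turned to 0.05 with the length offset. Slc2a3, the high-affinity carrier known from neurons, ran from 7.68 to 12.0 CPM in controls and from 6.65 to 7.82 with FNZ. Slc2a4, the insulin-responsive carrier of muscle and fat, was at 7.37, 5.72 and 10.1 TPM in control replicates 2, 3 and 4 and at 6.32, 11.9 and 3.60 in FNZ replicates 2, 3 and 5. Its libraries followed the order of the summed adipocyte markers, except that control replicate 4 and FNZ replicate 3 changed places. Those markers summed to 364, 65.1 and 807 TPM in control replicates 2, 3 and 4 and to 156, 647 and 52.0 TPM in FNZ replicates 2, 3 and 5. The part of fat in the Slc2a4 values was not tested.

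Hexokinases trap glucose as glucose phosphate. Hk1, the housekeeping form bound to mitochondria, was at 72.9, 62.8 and 64.4 CPM in control replicates 2, 3 and 4 and at 52.0, 81.3 and 52.0 CPM in FNZ replicates 2, 3 and 5. The groups overlapped because FNZ replicate 3 was the highest of all, while the other FNZ libraries were the lowest. The log2 fold change over all libraries was -0.11 ± 0.18. Hk2, the insulin-regulated form, ran from 30.4 to 44.4 CPM in controls and from 22.5 to 32.8 with FNZ, with a log2 fold change of -0.39 ± 0.19 (adjusted p of 0.263 in edgeR). Hk3, known from white blood cells, ran from 2.63 to 5.44 CPM and from 2.30 to 3.93 CPM. Of the 4 macrophage markers, 0 had a positive log2 fold change and 3 were lower in CPM in every FNZ library. In TPM Adgre1 and Csf1r were lower in every FNZ library, while Cd68 and Mrc1 overlapped. The 4 markers summed to 50.6 to 97.7 TPM in controls and to 39.3 to 43.6 with FNZ. The part of macrophages in the Hk3 values was not tested. Hkdc1, a hexokinase domain protein, had 1 to 4 counts per library and was not tested.

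Glucose phosphate isomerase, Gpi1, turns glucose phosphate into fructose phosphate. It was at 254, 217 and 227 CPM in the controls and at 253, 266 and 268 CPM with FNZ. In CPM the groups overlapped by a narrow margin, and in TPM every FNZ library (178 to 214) was above every control (160 to 173). The log2 fold change was 0.17 ± 0.10 in edgeR and 0.24 ± 0.10 in TPM, so the sign held across those scales, and neither passed adjustment.

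Phosphofructokinase adds the next phosphate and commits sugar to glycolysis. Pfkl, the liver-type subunit, was at 106, 90.6 and 96.6 CPM in controls and at 95.9, 118 and 104 with FNZ. Pfkm, the muscle-type subunit, was at 46.7, 55.3 and 47.6 CPM in controls and at 50.2, 59.5 and 53.2 with FNZ. Both had log2 fold changes of 0.12 ± 0.11 in edgeR, which turned to -0.11 and -0.13 in TPM, beside a median of -0.18 for all tested genes. Pfkp, the platelet-type subunit, was at 53.4, 51.4 and 62.1 CPM in controls and at 42.0, 71.8 and 41.2 with FNZ. Like Hk1, it was highest in FNZ replicate 3 and lowest in the other FNZ libraries. The shares of the subunits overlapped between the groups, with Pfkl holding 44.7% ± 2.89 of the summed TPM in controls and 46.0% ± 1.69 with FNZ.

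The regulators of phosphofructokinase included Pfkfb3, the member with the lowest log2 fold change. Pfkfb3 was at 59.2, 55.8 and 72.7 CPM in control replicates 2, 3 and 4 and at 35.5, 52.6 and 38.9 CPM in FNZ replicates 2, 3 and 5. All FNZ libraries lay below all controls, with FNZ replicate 3 the closest to them. The edgeR log2 fold change was -0.56 ± 0.17 (adjusted p = 0.139). It was -0.62 with the length offset and -0.82 in TPM, where the median of all tested genes was -0.18. DESeq2 gave an adjusted p of 0.0415.

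Within the PFKFB family Pfkfb3 held 45.6%, 42.0% and 48.5% of the summed TPM in the controls and 34.5%, 39.1% and 33.1% with FNZ. A share within a library is independent of the scaling between libraries. The difference in its share was -9.84 percentage points, with no overlap, while those of Pfkfb2 (24.1% to 27.8%) and Pfkfb4 (17.6% to 21.9%) were higher with no overlap. Each of these 3 had a two-sided exact permutation p of 0.1, the smallest that 3 against 3 allows, and an adjusted p of 0.625 over 25 shares in 8 families. The summed TPM of the family was 46.7 ± 5.08 in controls and 33.0 ± 7.46 with FNZ and did not overlap. The groups did not overlap in TPM for 31.5% of all tested genes either.

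Pfkfb2, the form known from heart, ran from 20.6 to 24.9 CPM in controls and from 19.2 to 25.1 with FNZ. Pfkfb4, a form known from testis, ran from 12.7 to 14.6 CPM and from 14.5 to 15.0 CPM. Pfkfb1, the liver and muscle form, was the least abundant at 4.00 to 5.33 CPM over all libraries. Tigar, a phosphatase that removes the activator, was at 14.3 to 18.7 CPM in controls and at 13.6 to 14.2 with FNZ. Its groups did not overlap, but the gap between the nearest libraries was small beside the spread of the controls, and the log2 fold change of -0.23 ± 0.15 had an edgeR adjusted p of 0.386.

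Aldolase splits the sugar bisphosphate into triose phosphates. Its main record, Aldoa (ENSMUSG00000030695), was at 535, 430 and 512 CPM in the controls and at 746, 658 and 633 CPM with FNZ. Every FNZ library was above every control. The edgeR log2 fold change was 0.46 ± 0.13 (adjusted p = 0.133), and it was 0.32 with the length offset and 0.17 in TPM, where the groups overlapped. DESeq2 gave an adjusted p of 0.0239. The short second record (ENSMUSG00000114515, 741 bases long) had only 8 to 18 counts per library and a log2 fold change of -0.42 ± 0.40. Aldoa held 98.8% ± 0.629 of aldolase TPM in controls and 98.6% ± 0.0971 with FNZ. Aldoc, the brain-type aldolase, was at 5.57, 4.21 and 16.6 CPM in control replicates 2, 3 and 4. With FNZ it ran from 11.4 to 14.7 CPM, and its control libraries differed more among themselves than the groups did. Oviduct epithelium markers were also highest in control replicate 4, at 426 summed TPM beside 19.7 to 55.6 elsewhere. Their part in the Aldoc values was not tested.

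Tpi1 interconverts both trioses. It was at 304, 253 and 274 CPM in controls and at 315, 386 and 289 CPM with FNZ. FNZ replicate 5 lay below control replicate 2, so the groups overlapped, and the log2 fold change was 0.25 ± 0.14.

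The lower part of glycolysis, from GAPDH to pyruvate kinase, held 7 tested records, and all 7 were above 0 in the edgeR fit. Their median log2 fold change was 0.25, beside 0.01 for all tested genes. That direction depends on the scale: with the length offset Pgk1 turned to -0.02, and in TPM Pgk1, Eno2, Eno3 and Pkm turned below 0, with a median of -0.09 beside -0.18 for all tested genes.

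Gapdh, which oxidises the triose and makes NADH, was the most abundant member in TPM. It was at 397, 343 and 358 CPM in control replicates 2, 3 and 4 and at 763, 518 and 575 CPM in FNZ replicates 2, 3 and 5. All FNZ libraries lay above all controls in CPM and in TPM, with FNZ replicate 2 the highest. The group means were 366 ± 28.1 and 619 ± 128 CPM. The edgeR log2 fold change was 0.76 ± 0.16 (adjusted p = 0.131), with 0.57 under the length offset and 0.30 in TPM, and DESeq2 gave an adjusted p of 0.00188.

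Pgk1, which makes the first ATP of the pathway, was at 242, 193 and 209 CPM in controls and at 217, 273 and 188 with FNZ. Its highest and lowest libraries both carried FNZ, and the log2 fold change was 0.07 ± 0.16. Pgam1, the phosphoglycerate mutase of most tissues, was at 325, 296 and 272 CPM in controls and at 361, 361 and 401 CPM with FNZ. It did not overlap in CPM, with a log2 fold change of 0.33 ± 0.11 (adjusted p of 0.151 in edgeR). In TPM it overlapped, at 0.08 ± 0.12. Pgam2, the muscle form, had 3 to 7 counts per library and was not tested.

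Eno1, the ubiquitous enolase, was at 141, 104 and 112 CPM in controls and at 216, 199 and 159 CPM with FNZ. All FNZ libraries were above the controls in CPM, while in TPM FNZ replicate 5 (111) lay between control libraries (87.6 to 117). The edgeR log2 fold change was 0.69 ± 0.16 (adjusted p = 0.131), with 0.61 under the length offset and 0.44 in TPM. DESeq2 gave an adjusted p of 0.00953. Eno2, the neuronal form, ran from 6.10 to 8.48 CPM in controls and from 7.77 to 9.14 with FNZ. Eno3, the muscle form, ran from 6.20 to 6.51 and from 5.91 to 8.32 CPM. Eno1 held 86.5% ± 2.68 of enolase TPM in controls and 90.3% ± 2.41 with FNZ, which overlapped. These shares leave out the near-identical copies of Eno1 described below. The 6 skeletal muscle markers summed to 5.84 to 6.53 TPM in controls and to 8.11 to 13.2 with FNZ. Mylpf and Tnnt3 made up most of that sum and were higher in each FNZ library, Ckm and Acta1 overlapped, and Myh4 and Pvalb were at or near 0. The part of muscle in the muscle isoforms was not tested.

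Pkm, pyruvate kinase, which makes the last ATP and pyruvate, was at 549, 463 and 508 CPM in controls and at 512, 653 and 479 with FNZ. The groups overlapped and the log2 fold change was 0.11 ± 0.14, against -0.18 in TPM, where the median of all tested genes was also -0.18.

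Gapdh and Eno1 have annotated near-identical copies elsewhere in the mouse genome, to which reads can be shared out. By shared 25-base words in GENCODE M21 transcripts, 20 copies shared at least 80% of their words with Gapdh and 2 with Eno1. Only 34.9% of the combined counts stood in the Gapdh record and 32.2% in the Eno1 record, so the TPM of both records leaves out most of the combined counts. The largest Gapdh copies, Gm7336 and Gm13394, had log2 fold changes of 0.33 ± 0.14 and 0.50 ± 0.11. Those of the Eno1 copies Eno1b and Gm4735 were 0.26 ± 0.19 and 0.38 ± 0.16.

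With the copies added, an alternative chosen after the values were seen, Gapdh was at 1240, 1040 and 1130 CPM in the controls and at 1830, 1590 and 1570 CPM with FNZ. All FNZ libraries still lay above all controls, with a pooled log2 fold change of 0.55 ± 0.12 (adjusted p of 0.131 in edgeR). Pooled Eno1 was at 465, 345 and 414 CPM in controls and at 566, 636 and 448 with FNZ. It overlapped, since FNZ replicate 5 lay below control replicate 2, and its log2 fold change was 0.43 ± 0.17 (edgeR adjusted p = 0.184). The copies of Pgam1 and Pgk1 had 0 counts, and Gm5514, a pseudogene that shared 61.8% of its words with Ldhb, was not pooled.

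**Figure D2:**
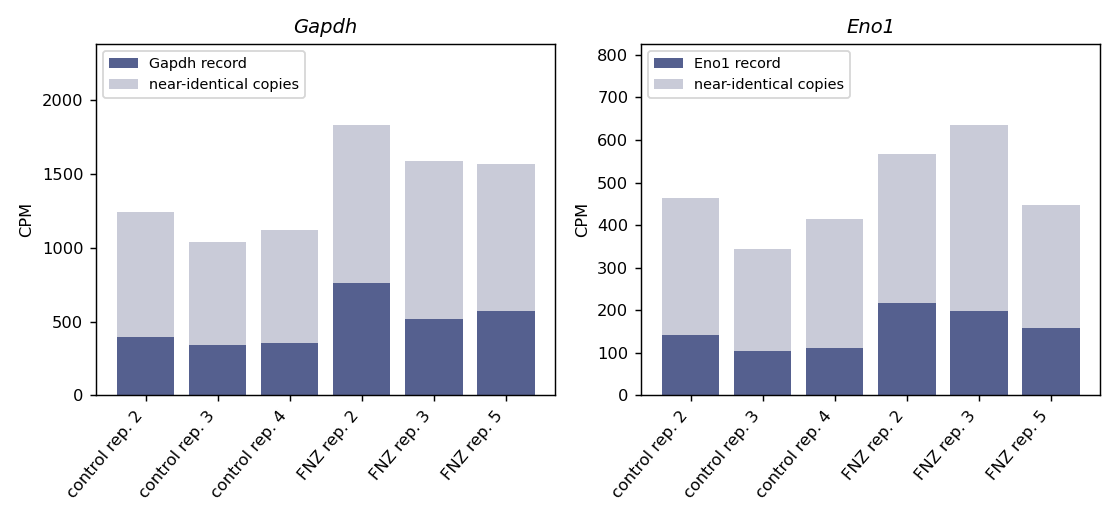
Stacked CPM per library of the Gapdh record (left) and the Eno1 record (right), dark, and of their near-identical copies, light. Most of the height is in the copies, the Gapdh totals of the FNZ libraries (1570 to 1830) stand above those of the controls (1040 to 1240), and the Eno1 totals overlap.

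Lactate dehydrogenase exchanges pyruvate and lactate. Ldha, the subunit that favours lactate formation, was at 418, 341 and 399 CPM in controls and at 406, 481 and 390 with FNZ. Its groups overlapped, with a log2 fold change of 0.14 ± 0.13. Ldhb, the subunit of heart that favours pyruvate formation, was at 305, 337 and 321 CPM in controls and at 399, 354 and 413 with FNZ. It did not overlap in CPM, with a log2 fold change of 0.28 ± 0.11 (adjusted p of 0.185 in edgeR), but it was 0.02 ± 0.10 in TPM. The subunits were nearly level, with Ldhb at 51.3% ± 4.01 of their TPM in controls and 53.9% ± 4.83 with FNZ.

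Monocarboxylate carriers move lactate across the membrane. Slc16a1, the widespread carrier MCT1, was the most abundant, at 110, 126 and 101 CPM in controls and at 81.3, 109 and 103 CPM with FNZ. The groups overlapped, with a log2 fold change of -0.20 ± 0.14. Slc16a3, the export carrier MCT4 of glycolytic cells, had the largest edgeR value of all members, 0.85 ± 0.48, with an edgeR adjusted p of 0.336. It was at 7.59 to 20.1 CPM in controls and at 15.4 to 42.7 with FNZ, with FNZ replicate 3 the highest. Without that library the log2 fold change was 0.41 ± 0.49. Slc16a7, the high-affinity carrier MCT2, ran from 12.2 to 12.7 CPM in controls and from 9.58 to 15.6 with FNZ. FNZ replicate 3 was the highest library for all but Slc16a1 of these 3 carriers. Smooth muscle markers were also highest there, at 2650 summed TPM beside 1090 to 1560 elsewhere, and so were neutrophil markers (107 beside 3.82 to 25.9), with Ly6g at 0 in every library. Their part in the carrier values was not tested.

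**Figure D3:**
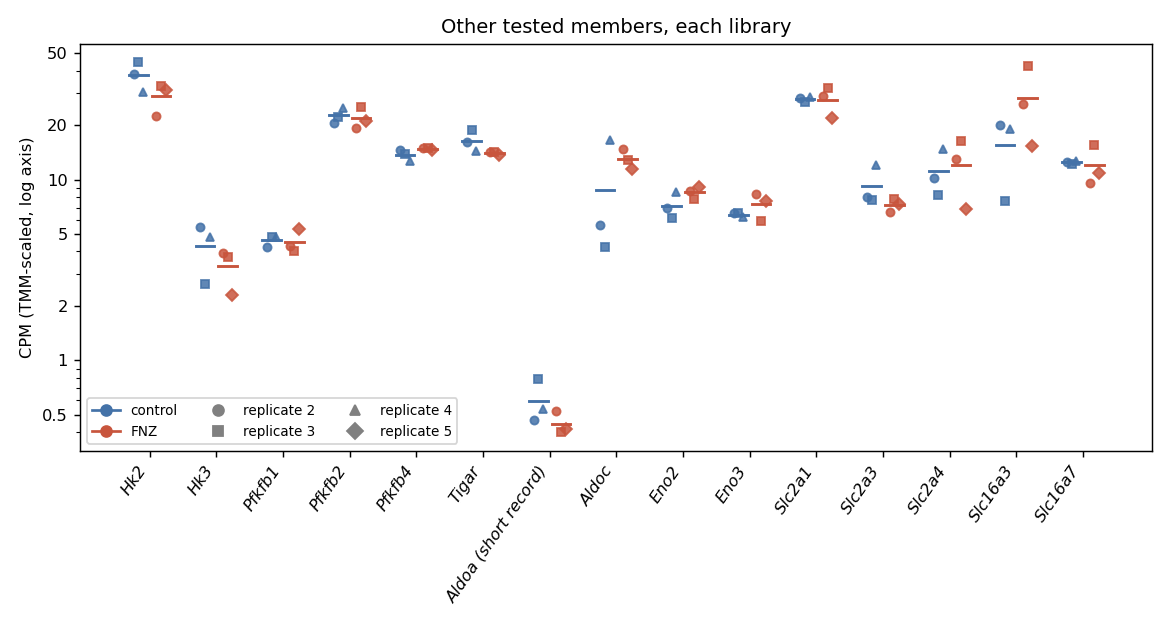
CPM (log axis) of the other 15 tested member records, 1 point per library with the group mean as a line. The groups overlap for each of these except Tigar, and Slc16a3, Slc2a4 and Aldoc have the widest spread within a group.

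**Figure D4:**
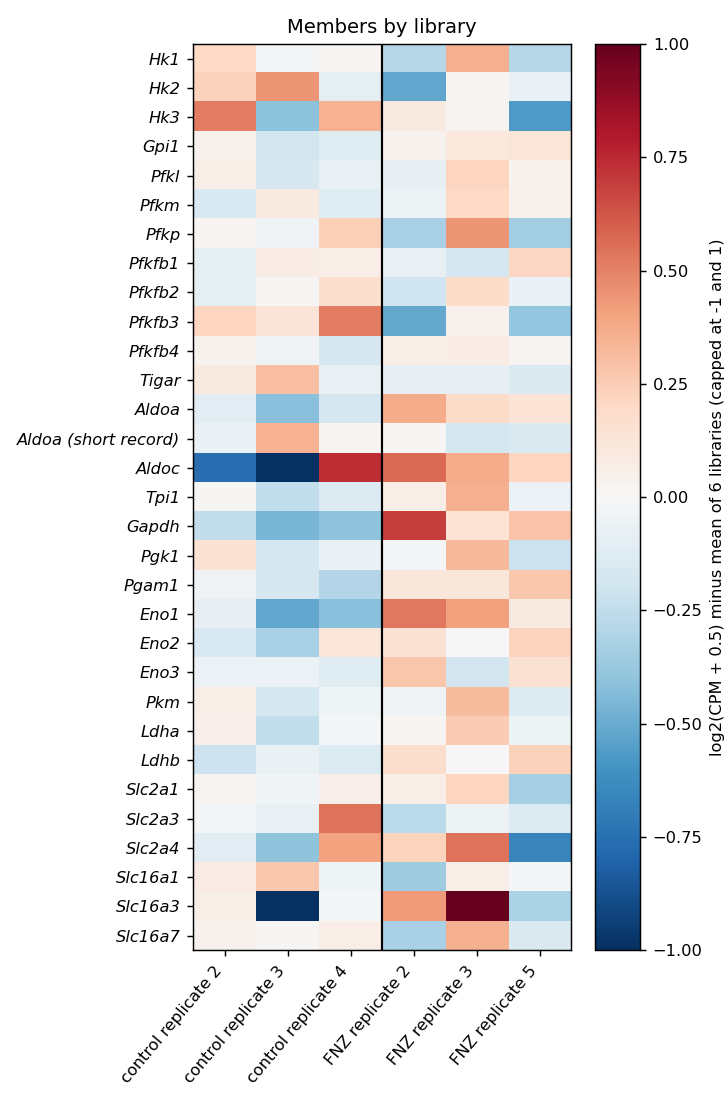
log2(CPM + 0.5) of each tested member record in each library, minus its mean over the 6 libraries, capped at -1 and 1. Red in FNZ replicate 3 runs across Hk1, Pfkp, Tpi1, Pgk1, Pkm, Ldha and Slc16a3 and Slc2a4, while Gapdh, Eno1 and Aldoa are red in all FNZ libraries.

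**Figure D5:**
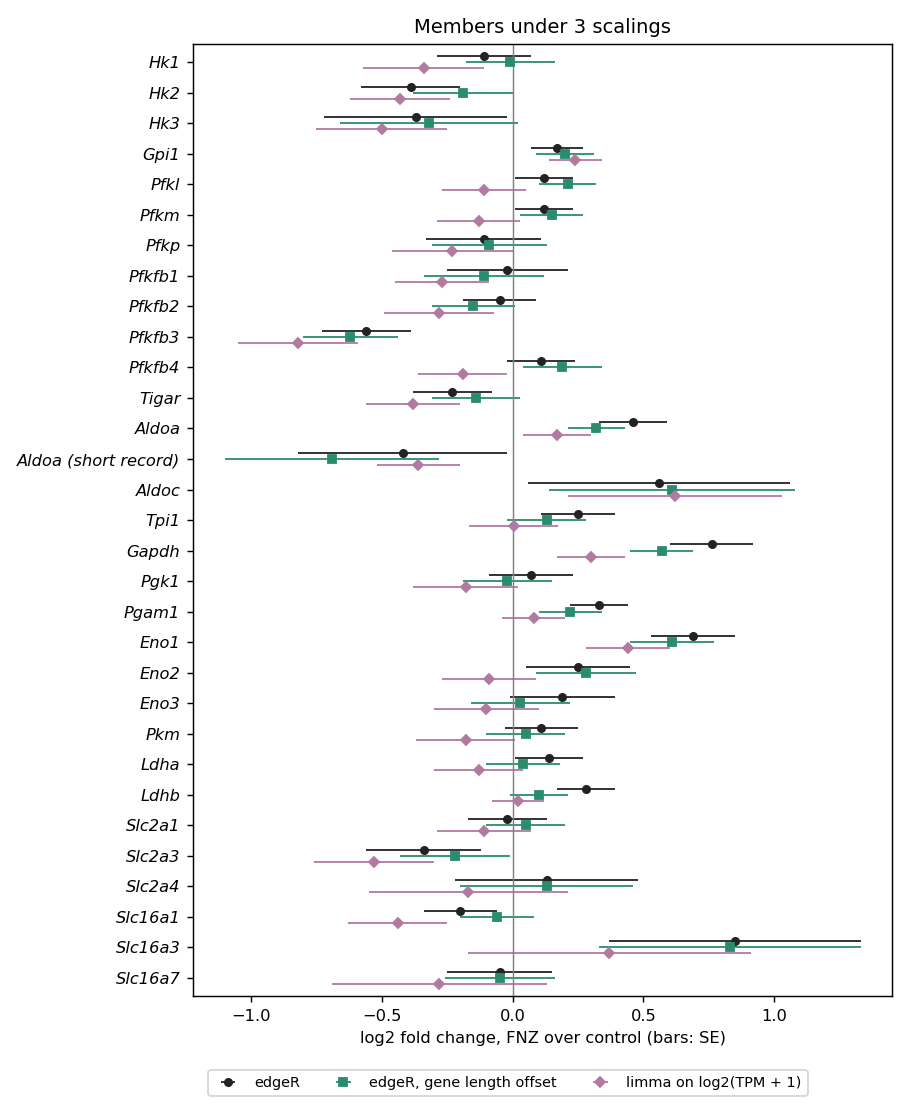
log2 fold change with its SE for each tested member record in edgeR, in edgeR with the gene length offset, and in limma on log2(TPM + 1). Gapdh, Eno1, Aldoa and Gpi1 lie above 0 and Pfkfb3, Tigar and Hk2 below 0 under all 3, while Pfkl, Pfkm, Pgk1, Pkm and Ldha lie above 0 in edgeR and below 0 in TPM. The median of all tested genes lies at -0.18 in TPM.

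By TPM over all libraries the most abundant members were enzymes from aldolase to lactate dehydrogenase. Gapdh was at 1030, Aldoa at 674, Ldhb at 450, Ldha at 410, Pkm at 332, Tpi1 at 299 and Pgam1 at 290. Pgk1 followed at 185, beside Gpi1 of an earlier step at 183, and Eno1 was at 118. Hexokinases summed to 36.0, phosphofructokinases to 90.5 and PFKFB enzymes to 39.9. Each was below every step from aldolase to lactate dehydrogenase, of which enolase was the lowest at 133. The Gapdh and Eno1 values and the enolase sum leave out the near-identical copies. The Eno1 record held 32.2% of its combined counts, so the rank of enolase among these steps is not settled. Glucose carriers (23.7) and lactate carriers (56.4) were at the low end as well. Summed over a step in TPM, Gpi1 and Gapdh were higher and the PFKFB enzymes and Tigar lower in every FNZ library. The other steps overlapped. Such separation was common, as the groups did not overlap in TPM for 31.5% of all tested genes. The median log2 fold change of all tested genes in TPM was -0.18, so most genes lay below 0 on that scale. The step sums were not tested.

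Promoters were read for their hypoxia response core, ACGTG, and a variant, GCGTG, on both strands, because genes of this pathway are known targets of hypoxia-inducible factor. RefSeq (GRCm38.p6) start sites were found for 29 of 32 genes, with 46 windows of 250 bases before a start. ACGTG stood in 37.0% of them, beside 16.6% of all 32851 such windows, and GCGTG in 47.8% beside 28.2%. Of the genes, 79.3% held either, beside 41.5% of all 27025. CACGTG is counted on both strands. A match is a description of letters and not a binding site. Windows of the same gene can overlap, as for Aldoa and Eno1, so a match can count in more than 1 window. The windows of all genes were not matched to the members for base composition or expression, and the part of these in the shares was not tested. The windows of Gapdh and Pfkfb3 are shown, as members called in opposite directions by DESeq2, with that of Ldha, which held the most matches and whose groups overlapped. Capitals mark the matches, and the strand is that of the gene.
Gapdh (chr6:125165774-125166023, minus strand): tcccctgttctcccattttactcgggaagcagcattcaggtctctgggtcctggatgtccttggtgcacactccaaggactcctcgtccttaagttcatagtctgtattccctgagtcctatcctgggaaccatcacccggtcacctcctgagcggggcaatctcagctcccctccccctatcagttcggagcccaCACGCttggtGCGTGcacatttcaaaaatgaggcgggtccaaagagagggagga
Pfkfb3, first window (chr2:11553930-11554179, minus strand): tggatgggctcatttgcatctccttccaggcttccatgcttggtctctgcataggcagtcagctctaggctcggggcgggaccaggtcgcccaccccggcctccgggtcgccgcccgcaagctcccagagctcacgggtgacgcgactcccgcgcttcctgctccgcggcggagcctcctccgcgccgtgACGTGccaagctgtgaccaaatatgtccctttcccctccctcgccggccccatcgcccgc
Pfkfb3, second window (chr2:11502091-11502340, minus strand): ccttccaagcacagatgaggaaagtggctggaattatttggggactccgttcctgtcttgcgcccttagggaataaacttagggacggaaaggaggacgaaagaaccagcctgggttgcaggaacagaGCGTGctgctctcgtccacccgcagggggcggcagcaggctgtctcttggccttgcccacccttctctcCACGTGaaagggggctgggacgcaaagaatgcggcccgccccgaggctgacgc
Ldha, first window (chr7:46845554-46845803, plus strand): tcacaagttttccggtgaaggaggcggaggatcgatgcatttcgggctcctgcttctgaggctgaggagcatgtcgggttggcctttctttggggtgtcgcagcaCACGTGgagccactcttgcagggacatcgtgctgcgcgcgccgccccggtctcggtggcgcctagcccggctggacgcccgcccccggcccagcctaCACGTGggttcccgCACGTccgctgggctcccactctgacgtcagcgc
The Gapdh window held 2 GCGTG matches and no ACGTG, the first Pfkfb3 window held 1 ACGTG and the second both kinds, and the Ldha window held 5 ACGTG matches. Matches stood before genes that were higher, lower and overlapping with FNZ.

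Neighbouring routes of glucose were read from lists with the same test, where edgeR called 0 members of each list after adjustment. For comparison, 12.0% of all tested genes were higher and 11.2% lower at an unadjusted edgeR p under 0.05. Of 26 other genes of glucose and pyruvate handling, 4 were higher and 3 lower at an unadjusted p under 0.05, and their median log2 fold change was -0.05. Pck2, the mitochondrial enzyme that makes phosphoenolpyruvate, was at 57.7, 47.5 and 54.1 CPM in controls and at 80, 77.7 and 70.4 with FNZ. All FNZ libraries were above the controls (log2 fold change 0.52 ± 0.11, edgeR adjusted p = 0.131). Mpc2, part of the mitochondrial pyruvate carrier, was at 27.8, 26.7 and 32.9 CPM and at 44.9, 34.7 and 37.7 CPM (0.42 ± 0.14, edgeR adjusted p = 0.148). With the length offset the log2 fold change was 0.59 for Pck2 and 0.20 for Mpc2.

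Among 16 other sugar and monocarboxylate carriers and their partners, 1 was higher and 2 lower at an unadjusted edgeR p under 0.05. Bsg, basigin, the chaperone that takes lactate carriers to the membrane, was at 385, 350 and 353 CPM in controls and at 512, 442 and 455 with FNZ. It did not overlap (log2 fold change 0.37 ± 0.11, edgeR adjusted p = 0.135), while Slc16a1, Slc16a3 and Slc16a7 above overlapped in CPM. With the length offset the log2 fold change of Bsg was 0.23.

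Of 10 glycogen genes, 1 was higher and 3 lower at an unadjusted edgeR p under 0.05. Gbe1, the branching enzyme, was at 32, 30.6 and 31.0 CPM in controls and at 21.1, 25.5 and 19 with FNZ. Pygb, the brain-type phosphorylase that breaks glycogen down, was at 260, 362 and 311 CPM and at 180, 238 and 200 CPM. Both lay below the controls in every FNZ library, by -0.51 ± 0.13 and -0.59 ± 0.16 on the log2 scale (adjusted p of 0.132 and 0.133 in edgeR). With the length offset both were at -0.49.

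Of 8 pentose phosphate genes 1 was higher, Taldo1, transaldolase, at 81.0 to 94.6 CPM in controls and 94.9 to 117 with FNZ (log2 fold change 0.27 ± 0.11, edgeR adjusted p = 0.204). Pgls, the lactonase after the first oxidation, overlapped, at 55 to 57.8 CPM and 55.9 to 77.6 CPM (0.31 ± 0.14, adjusted p = 0.223). With the length offset Taldo1 was at 0.11 and Pgls at 0.06. Of 21 regulators and hypoxia response genes, 1 was higher and 3 lower at an unadjusted edgeR p under 0.05. Their median log2 fold change was -0.06, with 8 above 0 and 13 below. Bnip3, a mitophagy receptor induced by hypoxia, was at 48.2 to 69.0 CPM in controls and 84.0 to 93.1 with FNZ (0.53 ± 0.15, adjusted p = 0.133). Arnt, the partner of hypoxia-inducible factors, was at 96.2 to 102 CPM and 69.8 to 90.9 CPM (-0.33 ± 0.11, adjusted p = 0.162). Bnip3 thus lay above and Arnt below the controls in every FNZ library. With the length offset their log2 fold changes were 0.42 and -0.31. Other hypoxia response genes of that list overlapped in CPM. Their edgeR log2 fold changes were 0.53 for Ankrd37, 0.02 for Car9, 0.01 for Vegfa, -0.07 for Ndrg1, -0.41 for Adm and -0.96 for Egln3.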

How the data were processed

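Poly(A) RNA of 6 ovary libraries was sequenced as paired-end reads, per the labels' protocols. Base calls used bcl2fastq 2.20 and the authors' test DESeq2 1.38.3, on build GRCm39, per the submitters' processing notes. For aligner, counter, annotation and counting strand nothing is given in the sources used here. The deposited table holds expected counts per gene (12.0% to 14.8% of values not whole) and TPM per library, which the authors scaled to 1000000. Its log2 fold change with p-value, raw and adjusted, is the authors' deposited result.

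Here expected counts were rounded and tested with edgeR 4.0.16 in R 4.3.3 (TMM, filterByExpr, glmQLFit with robust = TRUE, two-sided quasi-likelihood F test, Benjamini-Hochberg over all tested genes, threshold 0.05), although the test had been planned for counts. Errors are SDs over 3 libraries for levels and SEs for fold changes. TPM were tested with limma 3.58.1 on log2(TPM + 1). DESeq2 was version 1.42.0. The length offset is a loess trend (span 0.3) of log2 CPM on log2 length. The other alternatives were RLE and upper quartile scaling, voom, other filters and pseudocounts, robust = FALSE, replicate blocks, summed Aldoa records, pooled copies and each library left out.

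Members and lists were chosen with earlier results of these data known. Values in every library are printed for members with a mean of at least 20 TPM or an unadjusted p under 0.05, and for each other list the 2 members of smallest p are named. A gene that this rule selects is not reported here. Exons overlap those of a gene on the opposite strand for 13 members (among them Aldoa, Gapdh, Hk1, Gpi1, Pfkm, Pfkp and Tpi1) and on the same strand for 3 (Pfkfb2, Pfkm and Pkm) in GENCODE M21 (GRCm38), which leaves those counts uncertain. G6pc1 and Gyg1 were not matched by symbol and are not used here. Fits were checked on simulated data.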

Additional observations from a re-analysis of the deposited data

How the results depend on the processing

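edgeR called 0 genes and 0 members with TMM, RLE or upper quartile scaling, a 1 CPM filter, robust = FALSE, summed Aldoa records and pooled copies, and at thresholds of 0.01 and 0.1. Genes called higher and lower were 672 and 825 with DESeq2, 1 and 1 with voom, 1 and 0 in log2(TPM + 1), 2 and 2 in log2(TPM + 0.1), 99 and 84 with no filter, 1 and 1 with the length offset, 369 and 222 with that offset in DESeq2, and 291 and 324 with it without FNZ replicate 3. Leaving out each library gave 0 to 1464 higher and 0 to 1766 lower, the highest without FNZ replicate 3 and 1 lower without control replicate 3 or FNZ replicate 5. Members called higher and lower were 3 and 1 with DESeq2, 2 (Gapdh and Eno1) and 0 with no filter, 0 to 3 and 0 to 3 with each library left out, 2 and 1 with the length offset in DESeq2, and 1 and 1 with it without FNZ replicate 3.

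Members whose groups do not overlap were 9 to 12 of 31 with each library left out (29.0% to 38.7%, beside 34.8% to 52.5% of all tested genes), and 14 with the length offset without FNZ replicate 3 (45.2% beside 42.7%). The members' median log2 fold change was -0.174 and -0.176 in TPM with pseudocounts of 1 and 0.1, and -0.056 with the length offset without FNZ replicate 3. It is not said whether replicate numbers pair the samples. Correlations of deviations were -0.0846 and -0.135 for libraries of the same title number. They were -0.321 for control 4 and FNZ 5, which share a library number, and -0.212 to 0.372 for libraries that share neither. With 3 libraries a group these values cannot decide whether the samples were paired. A replicate block of the titles called 19 genes higher and 5 lower, 2 and 1 with the length offset, and a block of the library names 2 and 0, with no member in any.

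Gapdh, Eno1, Aldoa (main record), Pgam1, Ldhb and Pfkfb3 kept their sign in every alternative run. So did Gpi1, Hk2, Tigar, Aldoc, Slc2a3, Slc16a1 and Slc16a3, and the short Aldoa record wherever it was tested. Signs turned in TPM with a pseudocount of 1 for Pfkl (-0.11), Pfkm (-0.13), Pfkfb4 (-0.19), Pgk1 (-0.18), Eno2 (-0.09), Eno3 (-0.10), Pkm (-0.18), Ldha (-0.13) and Slc2a4 (-0.17), and with 0.1 for Pfkl (-0.11), Pfkm (-0.14), Pfkfb4 (-0.21), Pgk1 (-0.19), Eno2 (-0.11), Eno3 (-0.12), Pkm (-0.18), Ldha (-0.13) and Slc2a4 (-0.21). With the length offset, in edgeR and DESeq2, Pgk1 (-0.02) and Slc2a1 (0.05) turned, without FNZ replicate 3 Tpi1 (-0.04), Pgk1 (-0.22), Pkm (-0.13), Ldha (-0.09) and Slc2a4 (-0.17), and with the block Hk1 (0.00242), Hk3 (0.01), Pfkp (0.04), Eno3 (-0.07) and Slc2a1 (0.17). The title block alone turned Hk3 (0.01), Pfkp (0.07), Pfkfb2 (0.03) and Slc2a1 (0.15), and upper quartile scaling Pfkfb1 (0.02) and Slc2a1 (0.03). Leaving out each library gave ranges across 0 for Hk1 (-0.36 to 0.01), Pfkp (-0.42 to 0.03), Pfkfb1 (-0.15 to 0.06), Pfkfb2 (-0.17 to 0.04), Pgk1 (-0.08 to 0.19), Pkm (-0.03 to 0.20), Slc2a1 (-0.14 to 0.13), Slc2a4 (-0.16 to 0.41) and Slc16a7 (-0.29 to 0.10). It did so too for the family shares, in percentage points, of Hk1 (-0.828 to 4.31), Hk2 (-3.65 to 2.39), Pfkm (-0.669 to 2.08), Aldoa (-0.522 to 0.0639), Slc2a4 (-4.18 to 4.64) and Slc16a7 (-3.23 to 0.883). Shares of counts per base turned Aldoa (0.0369) and Slc2a1 (-0.0543). On the log2(TPM + 1) scale the median of all tested genes was -0.18. The cause of these turns was not tested. With 3 libraries a group, differences of the size of the SEs are not resolved, and the records with under 20 counts per library (Hkdc1, Pgam2 and the short Aldoa record) are limited by depth.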

Other observations

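Ratios of abundant neighbours in the pathway within each library, which the scaling between libraries does not touch, were chosen after the values were seen and were not tested. Gapdh to Pgk1, enzymes of adjoining steps, stood at 1.64, 1.78 and 1.71 in control replicates 2, 3 and 4 and at 3.52, 1.90 and 3.05 in FNZ replicates 2, 3 and 5, in CPM. FNZ replicate 3 was the nearest to the controls, and every FNZ library was above them. Eno1 to Pkm stood at 0.258, 0.224 and 0.220 in the controls and at 0.423, 0.305 and 0.332 with FNZ, again with no overlap. Aldoa to Tpi1 stood at 1.76, 1.70 and 1.87 and at 2.36, 1.71 and 2.19, and Ldhb to Ldha at 0.729, 0.989 and 0.804 and at 0.983, 0.736 and 1.06, both of which overlapped. The Gapdh and Eno1 ratios take only the named records and not their near-identical copies.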
